A study of Mus musculus with 2 samples.

Results

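The regions described here are 265 peaks of ISL1 CUT&Tag that recurred in both replicates of wild-type mouse retina, had an uneven coverage profile, and lay at the ends of protein-coding genes. They were chosen by 4 readings of the peak lists. An interval counted as uneven where its coverage summed over bases was below 95% of its width multiplied by its maximum coverage, so that coverage varied along it. An uneven interval of replicate 1 and an uneven interval of replicate 2 had to share at least 1 bp, and the union of the 2 was the peak. Neither interval could exceed a maximum coverage of 100, and the peak had to come within 1 kb of either end of a gene. These 265 peaks were 26.1% (95% Wilson interval 23.5 to 28.8) of the 1017 recurrent uneven peaks below that maximum. A further 290 lay inside gene bodies and 462 lay between genes. All shared peaks on chromosomes 1 to 19 and X, of any shape, numbered 13411.

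The study profiled retinal nuclei of wild-type embryos at E13.5, a stage at which ganglion cells are born, in 1 group of 2 replicates. An antibody against ISL1 directed the Tn5 transposase to nearby DNA, which was cut, tagged and amplified. The protocol names a pair of rabbit ISL1 antibodies without assigning them to replicates, and the labels leave the source animals of each replicate unstated. No control antibody and no retina lacking ISL1 were analysed here, and read depth is unknown. Peak lists hold no expression values, so the labelled tissue could not be checked against marker levels. With a single group, no test between groups exists, so the values below are descriptions, and their intervals cover counting error only.

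ISL1 is a LIM-homeodomain transcription factor that is made in newborn retinal ganglion cells and is needed for their differentiation. It acts with the POU factor POU4F2, downstream of the proneural factor ATOH7, and homeodomain proteins of its class bind short sites built around a TAAT core. Active promoters are open chromatin and are often rich in CpG, and Tn5 is known to cut open DNA readily.

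The promoter sequences below are RefSeq windows of 300 bases, from 250 before to 50 after an annotated start, in the build GRCm38.p6 that corresponds to mm10. They are printed 5′ to 3′ along the gene, and positions are counted from the start base, taken as 0. The 265 peaks overlapped 252 of the 21044 windows of protein-coding genes, and 184 peaks overlapped at least 1. Capitals mark, on either strand, only the words named for each window, and a match is a description of the letters alone. Other words that were searched stay in lower case: GGGCGG is also present for Atoh7, Klf7 and Pcna, and CCAAT for Itgb8 and Pcna. TATAAA is in lower case for Zswim6, and TAAT for Klf7, Itgb8 and H2bc3. Atoh7, the proneural gene of the ganglion cell lineage, has its window at chr10:63099535-63099834 (plus strand). Its capitals mark a TATA box, TATAAA, from position -30, an E-box, CAGATG, from -218, and a CCAAT box on the other strand from -245. Klf7, a zinc-finger regulator of ganglion cell axon growth, has its window at chr1:64121340-64121639 (minus strand). Its capitals mark the homeodomain site CTAATG, of the ISL1 type, on the other strand from -43. The same site is marked for Itgb8, an integrin subunit, at chr12:119238227-119238526 (minus strand), from 42 on the other strand, and for Pcna, the sliding clamp of DNA replication, at chr2:132253131-132253430 (minus strand), from -1 on the other strand. These 4 show the factors of the lineage and the highest-ranked windows with the site.
Atoh7: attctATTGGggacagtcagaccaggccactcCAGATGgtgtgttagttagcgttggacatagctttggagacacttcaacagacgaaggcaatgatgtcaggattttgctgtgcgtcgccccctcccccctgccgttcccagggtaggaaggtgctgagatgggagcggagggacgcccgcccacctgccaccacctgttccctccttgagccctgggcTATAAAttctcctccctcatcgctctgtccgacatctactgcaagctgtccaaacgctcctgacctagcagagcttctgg
Klf7: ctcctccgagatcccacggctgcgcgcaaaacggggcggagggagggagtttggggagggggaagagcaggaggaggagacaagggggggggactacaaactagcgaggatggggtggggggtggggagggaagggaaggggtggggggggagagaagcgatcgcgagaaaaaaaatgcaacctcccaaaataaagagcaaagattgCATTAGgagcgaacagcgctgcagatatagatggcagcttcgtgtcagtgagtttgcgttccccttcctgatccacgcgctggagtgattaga
Itgb8: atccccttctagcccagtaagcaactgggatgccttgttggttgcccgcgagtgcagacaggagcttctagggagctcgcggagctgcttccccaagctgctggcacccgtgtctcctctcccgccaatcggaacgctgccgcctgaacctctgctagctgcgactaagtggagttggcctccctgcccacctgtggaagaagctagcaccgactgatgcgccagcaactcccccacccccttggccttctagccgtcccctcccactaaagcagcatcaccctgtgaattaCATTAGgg
Pcna: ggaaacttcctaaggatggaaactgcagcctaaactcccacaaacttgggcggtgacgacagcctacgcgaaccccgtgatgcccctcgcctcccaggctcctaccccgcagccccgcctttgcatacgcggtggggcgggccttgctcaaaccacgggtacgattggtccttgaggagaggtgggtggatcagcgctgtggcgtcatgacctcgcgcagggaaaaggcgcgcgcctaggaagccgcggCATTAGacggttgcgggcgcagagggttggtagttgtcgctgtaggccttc

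A further 3 windows show the range of base composition. Kmt2c, a histone methyltransferase, lies at chr5:25498734-25499033 (minus strand), and its window has a GC content of 88.0% and 12 matches to the GC box GGGCGG in capitals, some of which overlap. Zswim6, a zinc-finger gene under the third peak in order of total coverage, lies at chr13:107890015-107890314 (minus strand), with 67.0% GC and a GC box on the other strand from -187. H2bc3, a gene of replication-dependent histone H2B, lies at chr13:23746484-23746783 (plus strand). Its window has 38.0% GC, 3 CCAAT boxes and a TATA box from -10.
Kmt2c: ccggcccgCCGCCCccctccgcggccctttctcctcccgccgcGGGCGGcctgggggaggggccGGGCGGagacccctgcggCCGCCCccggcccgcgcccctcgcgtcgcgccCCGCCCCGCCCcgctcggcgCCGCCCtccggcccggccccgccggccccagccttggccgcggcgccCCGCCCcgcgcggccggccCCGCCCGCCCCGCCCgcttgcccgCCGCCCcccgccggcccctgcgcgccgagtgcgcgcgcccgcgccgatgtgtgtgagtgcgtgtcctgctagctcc
Zswim6: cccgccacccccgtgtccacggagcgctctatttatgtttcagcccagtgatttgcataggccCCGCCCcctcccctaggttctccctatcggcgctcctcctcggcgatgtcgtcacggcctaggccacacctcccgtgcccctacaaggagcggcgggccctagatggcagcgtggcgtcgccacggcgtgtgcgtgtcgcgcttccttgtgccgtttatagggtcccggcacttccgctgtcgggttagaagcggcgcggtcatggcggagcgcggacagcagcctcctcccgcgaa
H2bc3: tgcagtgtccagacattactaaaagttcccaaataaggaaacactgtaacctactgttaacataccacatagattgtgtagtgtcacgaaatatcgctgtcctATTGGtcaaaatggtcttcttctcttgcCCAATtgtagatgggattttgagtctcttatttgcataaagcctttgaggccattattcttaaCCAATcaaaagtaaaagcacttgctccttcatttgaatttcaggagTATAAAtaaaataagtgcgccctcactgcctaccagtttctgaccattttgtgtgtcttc

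The last pair comes from a tandem array of near-copies on chromosome 4. Gm13276 lies at chr4:88784804-88785103 (plus strand) and Gm13278 at chr4:88790645-88790944 (plus strand). Their windows shared 99.7% of bases, and the capital marks the base at which they differ.
Gm13276: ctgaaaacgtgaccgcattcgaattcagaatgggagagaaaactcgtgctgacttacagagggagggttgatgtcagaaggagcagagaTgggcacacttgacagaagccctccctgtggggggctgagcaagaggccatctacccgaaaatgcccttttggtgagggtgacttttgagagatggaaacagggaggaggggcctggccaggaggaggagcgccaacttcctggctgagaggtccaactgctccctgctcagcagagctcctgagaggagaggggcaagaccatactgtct
Gm13278: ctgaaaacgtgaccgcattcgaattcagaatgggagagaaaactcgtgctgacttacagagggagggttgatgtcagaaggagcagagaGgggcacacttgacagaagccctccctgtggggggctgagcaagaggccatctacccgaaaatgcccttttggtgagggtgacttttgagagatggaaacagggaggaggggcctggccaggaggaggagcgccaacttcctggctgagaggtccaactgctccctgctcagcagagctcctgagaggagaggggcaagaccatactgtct

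The peaks were broad and of moderate height. Their unions had a median width of 876 bp (quartiles 667 to 1194 bp, range 102 to 2645 bp), and 249 of the 265 joined a single interval from each list. Maximum coverage had a median of 33.0 in replicate 1 (quartiles 20 to 49, range 2 to 99) and 31.0 in replicate 2 (quartiles 18 to 46, range 3 to 91). Both lists held peaks from very low coverage to near the limit of the rule. Summed coverage was a median of 58.0% of width times maximum in replicate 1 and 56.3% in replicate 2. No peak had identical ends in the 2 lists. These values follow in part from the rule and are given as description.

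Maximum coverage was higher in replicate 1 at 140 peaks, higher in replicate 2 at 123 and equal at 2, and at 44 peaks the higher maximum was at least 3 times the lower. At 158 peaks the maximum was 20 or more in both lists, and at 17 it was 50 or more in both. Across the 265 peaks, Spearman's correlation of summed coverage between replicates was 0.19, and it was 0.14 over the 223 peaks with a maximum of 10 or more in both. The correlation was 0.60 for the 290 recurrent uneven peaks in gene bodies and 0.68 for the 462 between genes. The latter classes reached lower: 16.2% and 31.6% of them had a maximum under 10 in both lists, against 2.26% at gene ends. Restricted to a maximum of 10 or more in both, the correlation was 0.32 (n = 198) in gene bodies and 0.44 (n = 213) between genes. For maximum coverage the correlation was 0.32 at gene ends (0.23 without peaks in tandem arrays), 0.60 in gene bodies and 0.65 between genes. All points of a class share the same 2 libraries, and no test of these differences was made.

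**Figure D1:**
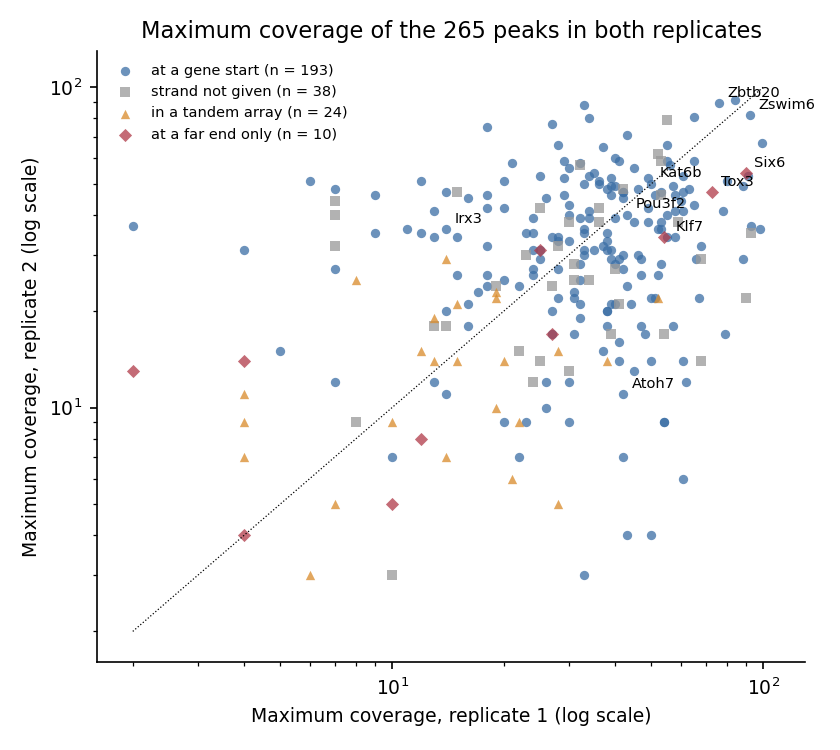
Maximum coverage of each of the 265 peaks in replicate 1 (horizontal, log scale) against replicate 2 (vertical, log scale), with the dotted line marking equal values. Symbols mark peaks at a gene start, at a far end only, with strand not given, or in a tandem array. A peak in an array carries the array symbol whichever end it touches. The cloud is wide around the line: Six6 and Zswim6 are high in both replicates, Atoh7 (42 and 11) lies below the line and Irx3 (14 and 36) above it.

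The site of maximum coverage, called the summit, differed between the replicates by a median of 178 bp (quartiles 86.0 to 315 bp), and 143 peaks (54.0%, 47.9 to 59.9) had summits within 200 bp of each other. The corresponding shares were 58.3% (52.5 to 63.8) in gene bodies and 55.8% (51.3 to 60.3) between genes, with overlapping intervals. Flat shared peaks at gene ends, whose coverage equalled width times maximum and whose maximum was 10 or more in both lists, had a share of 72.1% (66.9 to 76.7, n = 315). Those flat peaks were narrower, with a median union width of 487 bp, and the rank correlation of their summed coverage was 0.09.

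Of the uneven intervals at gene ends, most met no uneven interval of the other list. An overlap with a flat interval of the other list does not count here. Where it counted, 957 shared peaks were found at gene ends. In replicate 1, 18.1% (16.2 to 20.2) of 1459 uneven intervals at gene ends met an uneven interval of replicate 2. The share was 11.8% (10.6 to 13.1) in gene bodies and 15.4% (14.2 to 16.7) between genes. In replicate 2, 24.1% (21.7 to 26.7) of 1119 uneven intervals at gene ends met an uneven interval of replicate 1. The share was 10.0% (9.01 to 11.1) in gene bodies and 10.7% (9.87 to 11.6) between genes. Recurrence and position chose the peaks, so these shares are a description. The interval for gene ends lay above the other 2 in replicate 2, and overlapped that for peaks between genes in replicate 1.

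The rule took either end of a gene, and nearly all peaks that could be placed by strand touched a start. RefSeq promoters gave the strand of 17273 of the 21627 protein-coding genes, which placed 225 of the 265 peaks. Of these, 212 touched a start, or 94.2% (90.4 to 96.6), and 13 touched a far end alone. The other 40 peaks touched no known start and at least 1 gene whose strand is not in the table used here. A peak that touched any known start was counted at a start, also where it touched another gene's far end, which favours starts. The share at a start was 92.3% (90.6 to 93.7) of all uneven intervals at gene ends in replicate 1 and 88.7% (86.5 to 90.6) in replicate 2. It was 74.0% (72.9 to 75.2) and 71.2% (70.0 to 72.3) of the flat intervals there. Flat peaks shared by both replicates with a maximum of 10 or more stood at 93.5% (89.8 to 95.9), so their interval overlapped that of the uneven recurrent peaks.

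**Figure D2:**
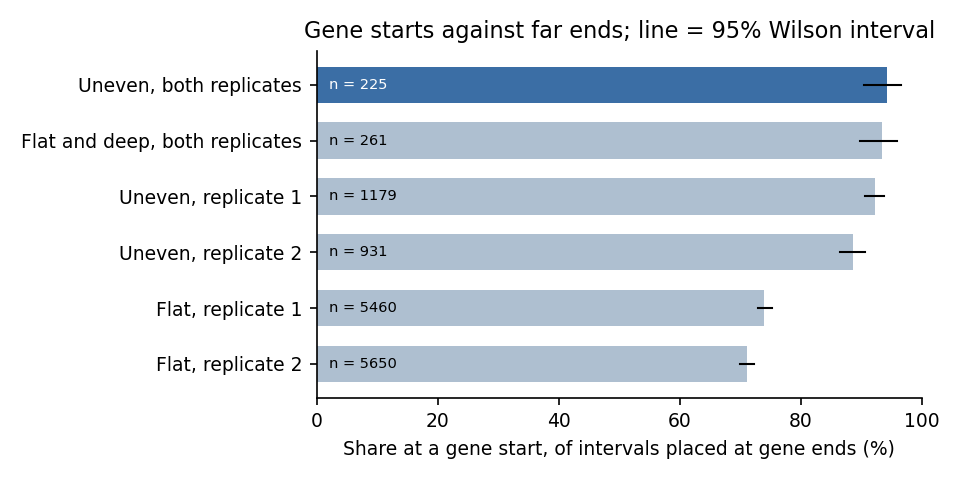
Share of intervals at gene ends that touched a gene start (horizontal, percent of those with a known strand), with 95% Wilson intervals as lines and the number placed inside each bar. Uneven recurrent peaks (94.2%) and deep flat shared peaks (93.5%) stand alike, above the flat intervals of a single list (74.0% and 71.2%).

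Summits lay on both sides of the start, where each summit was measured to its own nearest start if a gene has several. The median distance from the summit to the nearest annotated start of the touched gene was 193 bp in replicate 1 and 188 bp in replicate 2 (mean 190 bp, SD 3.71, n = 2). Taken at the midpoint between the 2 summits, the median was 169 bp. Summits lay within 500 bp of the start at 84.0% (78.4 to 88.3) of the 212 peaks in replicate 1 and 83.5% (77.9 to 87.9) in replicate 2. They were downstream of the start at 46.2% (39.6 to 52.9) and 50.9% (44.3 to 57.6), with no lean to either side beyond counting error. The start base itself was covered by the interval of replicate 1 at 68.4% and of replicate 2 at 68.9% of peaks, and by both at 54.2% (47.5 to 60.8).

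**Figure D3:**
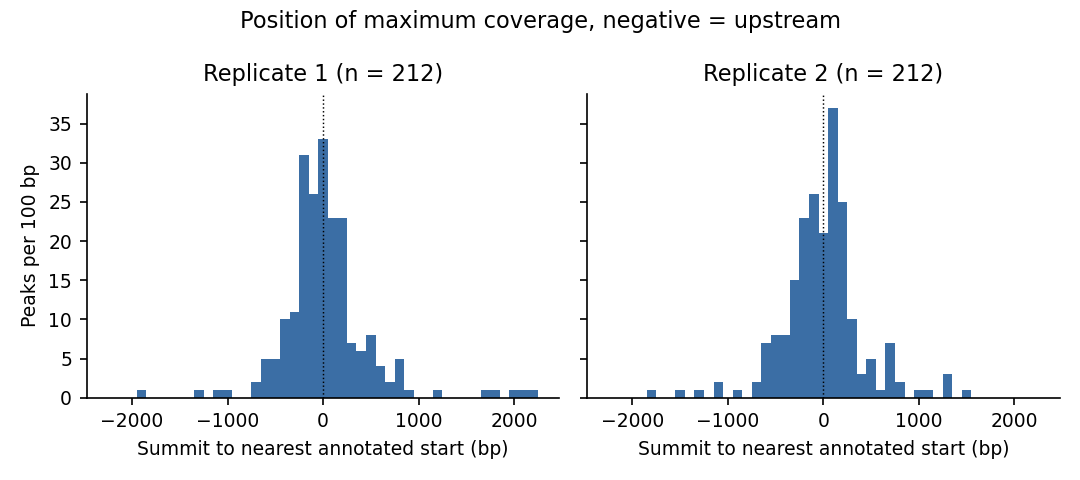
Distance from summit to nearest annotated start in bp (horizontal, negative upstream) for the 212 peaks at a gene start, counted per 100 bp, with replicate 1 on the left and replicate 2 on the right. Both replicates show a single pile around the start, with medians of 193 and 188 bp in size, and a few summits beyond 1000 bp.

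Among regulators of retinal ganglion cell fate, 3 of 35 listed genes had such a peak, namely Klf7, Irx3 and Atoh7. Over all protein-coding genes 1.45% had a recurrent uneven peak at an end, and the 3 genes were 8.57% of their list. The Atoh7 peak, chr10:63099264-63100341, had a maximum of 42 in replicate 1 and 11 in replicate 2. Its summits were at -16.5 and -32.5 bp from the start, 16 bp apart, and the TATA box printed above starts at -30. Both replicates peaked at nearly the same place, while the heights differed. The Klf7 peak, chr1:64121338-64122353, reached 55 and 34, with summits 363 bp apart. Klf7 has a start at either end of this peak, and both summits lie between them. The Irx3 peak, chr8:91801530-91802211, at an Iroquois homeobox gene, reached 14 and 36, with summits at -161.5 and -152.5 bp. Isl1 itself, Pou4f2 and Irx5 had no peak of this class, and neither list had an uneven interval with a maximum of 100 or less at their ends.

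Retinal progenitor regulators gave 1 of 36 genes, Six6, a homeobox gene of the eye field and of progenitors. Its peak, chr12:72944760-72945961, reached 90 and 54 with summits 103 bp apart. It spans the last base of the gene, chr12:72939882-72944899 on the plus strand, so it sits at the far end and not at the promoter. Axon guidance genes gave 1 of 34, Epha4, an ephrin receptor, whose peak chr1:77515140-77515545 reached 41 and 16. Neuronal differentiation genes gave 0 of 30 and factors of other retinal neurons 0 of 25.

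Chromatin regulators had the largest share among the 13 lists, with 8 of 59 genes, or 13.6%, against 1.45% of all protein-coding genes. The acetyltransferase gene Kat6b led with a peak at chr14:21499690-21501253 that reached 50 in both replicates, with summits at 715.5 and 777.5 bp, inside the gene. The methyltransferase gene Kmt2c reached 38 and 33 at chr5:25498335-25499683. The demethylase gene Kdm4a reached 34 and 80 at chr4:118179456-118180444. The others were the bromodomain gene Brd2, the methyltransferase gene Setd2, the demethylase gene Kdm6a, the deacetylase gene Hdac2 and the cohesin gene Stag2. Their maxima ranged from 8 (Stag2) to 36 (Brd2) in replicate 1 and from 9 (Stag2) to 50 (Brd2) in replicate 2. At 6 of the 8 genes, each list had an uneven interval within 1 kb of an end. Kdm6a had none in replicate 2 and Stag2 none in replicate 1, so those peaks reached the window through 1 list.

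Splicing and RNA-binding factors gave 2 of 48 genes. Hnrnpa1, an hnRNP gene, shares with its neighbour Cbx5 a peak that reached 39 and 49. Cell cycle genes gave 1 of 40, Pcna, at 51 and 46. Ribosomal proteins gave 0 of 77, ubiquitin and proteasome genes 0 of 49 and immediate early genes 0 of 30. Genes of other tissues gave 0 of 30, and genes of other cells in an eye preparation, such as lens, pigment epithelium and vessels, gave 0 of 26. In all, 16 of 513 listed genes (3.12%, 1.93 to 5.01) had a peak, against 1.45% of all protein-coding genes. Counts of 0 or 1 in lists of this size are near that share. The lists were chosen with earlier results of these data known, so a list's count is a description.

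Counts in a single replicate were larger. Over all protein-coding genes, 7.66% had an uneven interval of replicate 1 at an end and 5.77% one of replicate 2. The ganglion cell list had 7 of 35 genes in replicate 1 and 8 in replicate 2, and the progenitor list had 7 and 10 of 36. Chromatin regulators had 14 and 10 of 59, and splicing factors had 12 and 9 of 48. Neuronal differentiation genes had 7 of 30 in replicate 1 and 0 in replicate 2, so none of them had an uneven interval in both. Immediate early genes had 5 and 6 of 30, with no shared peak under the limit on the maximum. Jund, which is on that list, had a shared uneven peak that reached 121 and 57, above that limit. Genes of other tissues had 0 in both lists.

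**Figure D4:**
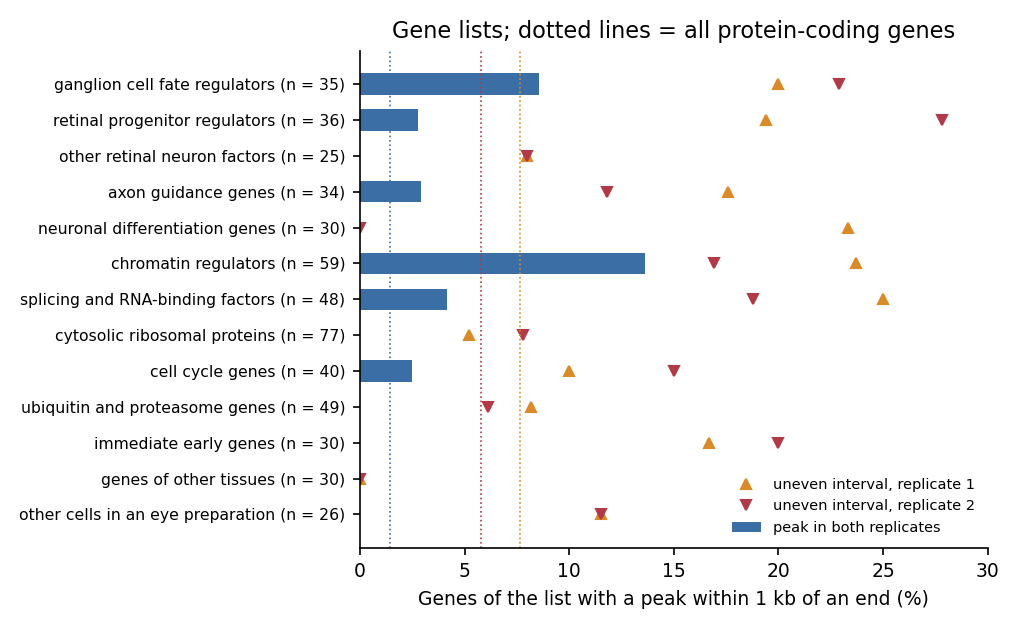
Percent of the genes of each list (horizontal) with a recurrent uneven peak (bars), an uneven interval of replicate 1 (upward triangles) or of replicate 2 (downward triangles) within 1 kb of an end, with dotted lines at 1.45%, 7.66% and 5.77%, the shares over all protein-coding genes. Chromatin regulators (13.6%) and ganglion cell regulators (8.57%) have the longest bars, and 7 lists have none.

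By mean rank of summed coverage over the 2 lists, the 12 highest peaks held 1 listed retinal regulator, Six6, and 1 listed chromatin regulator, Kat6b. The highest touched the predicted genes LOC108167694 and Gm20783 on chromosome 9 and reached 99 and 67. The peak at the centrosomal genes Cep170 and Sdccag8 reached 84 and 91, and that at Zswim6 reached 92 and 82. Kat6b came next, then Zbtb20, a BTB zinc-finger repressor, at 76 and 89. The peak at Fcgr3, an Fc receptor gene of immune cells, reached 93 and 37 with summits 1091.5 bp apart, so the replicates peaked at different sites. Six6 followed, and then the peak touching Akt1s1 and Tbc1d17, a gene of unknown strand here, at 33 and 50. The last 4 were Fiz1 with Zfp524 at 61 and 53, Ing1 at 61 and 41, Zfp516 at 52 and 62, and Zfp398 with Zfp786 at 45 and 56.

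The following gene families were picked after the values were seen, and their counts support nothing. Histone genes had 13 of 67 members (19.4%) under 6 peaks, among them H2bc7, H2ac7 and H3c4 under 1 peak at 24 and 27, and H3c3 with H2bc3 at 38 and 48. Those genes are close paralogs in clusters, so reads may be shared between copies. Kdm demethylase genes had 3 of 17 (Kdm3a, Kdm4a and Kdm6a), and Zbtb genes had 3 of 41. Zfp zinc-finger genes had 8 of 397, or 2.02%, near the background of 1.45%. Olfactory receptors, a large family silent in retina, had 0 of 1110.

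A share of the peaks covered neighbouring genes that start back to back. In all, 313 genes had a peak at an end: 204 peaks touched 1 gene, 59 touched 2 and 2 touched 3. Of the 242 genes with a peak at their start, 38 were in a head-to-head pair (15.7%, 11.7 to 20.8), against 7.71% of the 17273 genes with a strand. At 19 peaks both starts of such a pair were touched. Pairs were sought only among genes with a strand, so a neighbour of unknown strand is left out of this count and ranking. The highest ranked were Cryzl1 with Itsn1, an endocytic scaffold gene, at 56 and 57, and Fkbp3 with Fancm, a DNA repair gene, at 80 and 51. Pcna with Cds2 reached 51 and 46, and Peg3 with Usp29, imprinted neighbours, reached 53 and 38. A head-to-head pair offers 2 starts to the rule, so this share follows in part from the rule. Genes with a peak had a median length of 23.3 kb, against 17.3 kb over all. A flat interval of replicate 1 lay within 5 kb of the start at 58.3% (52.0 to 64.3) of the 242 genes, against 44.9% of all stranded genes. For replicate 2 the values were 46.3% (40.1 to 52.6) and 47.2%, so the replicates differed in this.

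The 13 peaks at far ends included few known regulators. Besides Six6, the highest were Tox3, an HMG-box gene, at 73 and 47, the predicted gene Gm40369 at 19 and 22, and Mid1, a microtubule-associated ubiquitin ligase gene on chromosome X, at 54 and 34. A second Mid1 peak reached 2 and 13, and Gm40369 also had 2 peaks. Those of Gm40369 lie in a tandem array described below and count as uncertain. The Tox3 peak, chr8:90245811-90246589, lies beyond the last base of the gene, chr8:90247110-90349029 on the minus strand.

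Some of the peaks repeat along tandem arrays. On chromosome 4, 14 peaks touching 13 genes fell in chr4:88760157-88807121, an array of interferon zeta-type genes (Ifnz and predicted copies), spaced by a median of 2928 bp. Maxima there were 4 to 52 in replicate 1 (median 17.0) and 5 to 25 in replicate 2 (median 14.5). Its 13 promoter windows fell into 3 groups of copies identical at 99% or more of bases, with 6, 4 and 3 windows, to the first of which the printed Gm13276 and Gm13278 belong. On chromosome 6, 10 peaks touching 6 predicted genes fell in chr6:47654836-47682307, with maxima of 4 to 21 and 3 to 29, and the 2 windows there were identical. Where copies are near-identical, short reads cannot be assigned to 1 copy with certainty, so these 24 peaks count as uncertain. Without them, 241 peaks remained, with 95.1% (91.2 to 97.3) of those placed at a start. In all, 33 peaks touched predicted genes (Gm or LOC) alone, and 22 of these were in the arrays. Identity between copies was measured in the arrays only, so the 241 may still hold peaks with the same doubt.

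The promoters under the peaks were rich in GC and CpG, which the rule did not use. Their 252 windows had a median GC content of 63.7% (quartiles 57.9 to 68.7), against 56.7% (48.3 to 64.7) over all windows and 53.7% under no interval of either list. A CpG observed-to-expected ratio of 0.6 or more was found in 81.3% (76.1 to 85.7), against 48.1% (47.5 to 48.8) of all. Windows under uneven intervals of replicate 1 alone and of replicate 2 alone had medians of 64.0% and 64.3%. Windows under deep flat shared peaks had 64.3%. The kinds of peak at starts thus had medians within a narrow range of each other. The 252 windows belong to 208 genes, and some windows of a gene overlap or are near-copies in tandem arrays. Windows are therefore not independent, and the intervals on their shares, here and for the motifs below, are too narrow.

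**Figure D5:**
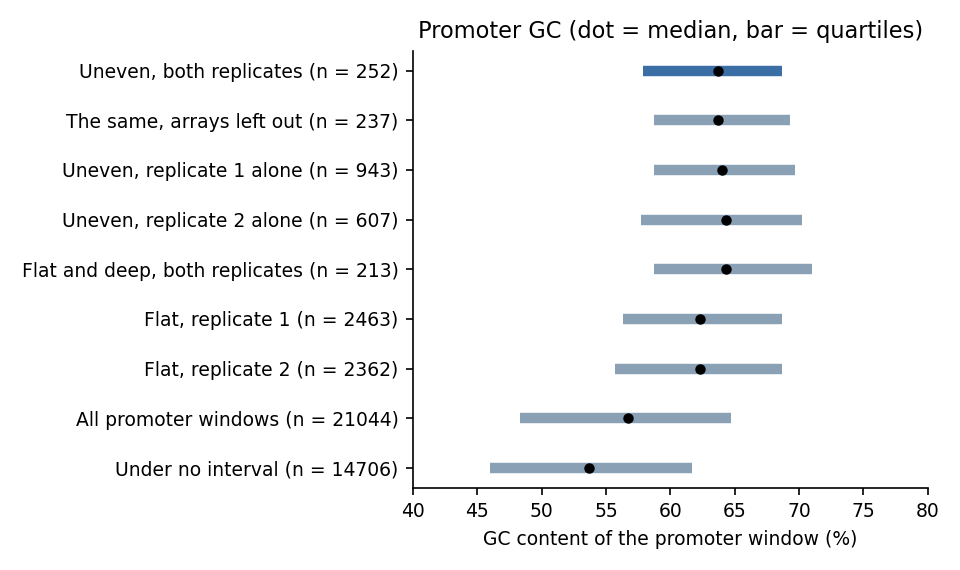
GC content of RefSeq promoter windows (horizontal, percent) under each kind of interval and over all windows, with the median as a dot and the quartiles as a bar. Every kind of window under an interval has a median above 62%, while all windows together are at 56.7% and those under no interval at 53.7%.

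Homeodomain words were found in a minority of these promoters. The ISL1-type site CTAATG stood in 9 of 252 windows, or 3.57% (1.89 to 6.65), against 6.41% (6.08 to 6.74) of all 21044 windows, with overlapping intervals. In the 9661 windows with GC at or above the lower quartile of the peaks' windows it stood in 2.87% (2.55 to 3.22). The 9 were Itgb8, Pcna, Gsk3a, Golim4, H2bc7, Hip1, Ubxn6, Klf7 and Gamt. Deep flat shared peaks had it in 7.98% (5.04 to 12.4) of 213 windows. The TAAT core, which CTAATG contains, stood in 37.3% (31.6 to 43.4), against 51.7% of all and 25.7% of the high-GC windows. The LIM-homeodomain form TAATTA, which also contains it, was in 1.59%, against 4.47% and 0.818%. The OTX-type form TAATCC was in 3.97% (2.17 to 7.15), against 6.38% of all and 3.53% of the high-GC windows, both within its interval. Only 300 bases of each promoter were searched, on both strands, and the peaks extend beyond them. The high-GC windows had a median GC of 65.3%, against 63.7% for the peaks' windows, some of which lie below the cut. Shares set against the high-GC windows are thus not fully matched for GC.

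Of the general promoter motifs, the GC box was the most frequent. The GC box GGGCGG was in 73.0% (67.2 to 78.1) of the windows, against 46.7% of all and 78.5% of the high-GC windows. The CCAAT box was in 44.4% (38.4 to 50.6), against 38.5% of all and 33.4% of the high-GC windows, so its interval lay above that of the high-GC windows (32.5 to 34.4). Windows under uneven intervals of replicate 1 alone and of replicate 2 alone had a similar share, 44.2% and 41.5%. Those under deep flat shared peaks had 34.3% (28.2 to 40.9). The ETS site CCGGAAG was in 7.54% (4.88 to 11.5), against 11.7% of all and 17.0% of the high-GC windows, whose interval (16.3 to 17.8) lay higher. The CRE site TGACGTC was in 7.14% (4.57 to 11.0), against 3.88% of all and 5.57% of the high-GC windows, the latter within its interval. The E-boxes of proneural factors gave 11.5% (8.13 to 16.0) for CAGCTG, against 15.7% of all and 15.9% of the high-GC windows. CAGATG was in 4.76% (2.74 to 8.14), against 14.4% and 9.23%. The latter is the form marked in the Atoh7 window. The AP-1 site TGAGTCA was in 1.59%, against 4.69% of all and 2.86% of the high-GC windows. The TATA box was in 6.75% (4.25 to 10.5), below the 12.7% of all and above the 3.68% (3.33 to 4.08) of the high-GC windows, so the direction depends on which windows it is set against. The SOX site ACAATGG was in 1.98% (0.850 to 4.56), against 2.94% of all and 1.65% of the high-GC windows. The YY1 site AAGATGG was in 5.95% (3.64 to 9.59), against 6.28% and 6.01%, and the NRF1-type site GCATGCG in 4.37% (2.45 to 7.65), against 4.47% and 6.28%. The intervals of these 3 sites hold both comparison shares.

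Values just inside and just outside the limits of the rule show how the set is bounded. By maximum coverage, the peaks nearest the limit were those of Gm20783 (99), Atf7ip (98) and Rassf8 (93), and those first left out included Vcl (109) and Jund (121). The highest left out, near Wls, reached 2276 and 1512, and 274 peaks would stand without the limit. By evenness, the least uneven that were kept were Nutf2 (94.7% of width times maximum), Adamts4 (94.2%) and Adck2 (94.0%). The first left out were H2-Ke6 with Slc39a7 (95.2%), Plekhh3 (95.4%) and Gse1 (95.9%). By distance, Mid1 (988 bp from the end), Nup210 (971 bp) and Gm40365 (955 bp) were kept, and Armc5 (1080 bp) and Gm39469 (1123 bp) were not.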

How the data were processed

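CUT&Tag of ISL1 was analysed in 2 replicates of wild-type E13.5 mouse retina, as 1 group. The authors deposited 1 list of intervals per replicate, in mm10, with summed signal, maximum signal (coverage in whole numbers) and the region of maximum signal. FastQC, Bowtie2, MACS2 and SEACR are named per the submitters' processing notes, without versions or roles, and the caller's threshold, control track and duplicate handling were not given in the sources used here. Depth is unknown. PCR reads without molecular identifiers are not independent molecules.

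Intervals on chromosomes 1 to 19 and X were used (120303 in replicate 1, 152161 in replicate 2), of which 7338 and 8886 were uneven. Unions were made by single overlap of at least 1 bp and matched to 21627 protein-coding RefSeq gene spans. Strand and starts came from the RefSeq promoter table. Summits are midpoints of the authors' regions of maximum signal. Motifs were searched as exact words on both strands. Named genes follow a rule: the 12 peaks with the best mean rank, up to 3 genes per list, 7 fixed regulators, 3 peaks on either side of each limit, and the 4 best peaks touching several genes or a far end alone. The other genes were chosen after their values were seen. A few genes under this rule are not reported here. Members, lists and rules were chosen with earlier results of these data known. The procedure was tested on simulated lists. Python 3.11.15, pandas 2.3.3, numpy 2.4.6 and scipy 1.17.1 were used.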

Additional observations from a re-analysis of the deposited data

How the results depend on the processing

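No paired analysis was possible because the series has 1 group of 2 samples. Of 265 peaks, 148 were left with a reciprocal overlap of 50%, and 957 were found when an uneven interval in only 1 list was enough. The listed genes with a peak were 1.56% and 11.3% under those settings. The share over all protein-coding genes was not computed for them, so these values say nothing about the listed genes in particular. Using a single list, without the other replicate, gave 1119 to 1459 intervals and a share at a start of 88.7% to 92.3%. Of listed genes, 13.1% had an interval in replicate 2 alone, against 5.77% of all protein-coding genes. In replicate 1 alone the shares were 14.4% and 7.66%. The median distance to the start, 169 bp as reported, was 178 bp with unevenness below 0.90 and 176 bp below 0.80. It was 193 bp with a maximum of 50 or less, 174 bp with no limit on the maximum, 158 bp for a window of 500 bp, 193 bp for 2 kb and 196 bp with unevenness in 1 list. It was 166 bp with the arrays left out, a setting added after seeing the data. In single lists it was 190 bp for replicate 1 and 206 bp for replicate 2, taken at the 1 summit of that list. By that measure the reported peaks had 193 and 188 bp, so the single-list values are not to be set against 169 bp. The share of CTAATG windows was 1.25% with a maximum of 50 or less. The summit offset fell from 178 to 152 bp with the reciprocal overlap. The cause of these shifts was not tested. Of the 13 settings, the share at a start left its interval only without replicate 1 (88.7%), and median promoter GC left it in none. Unknown depth limits any reading of signal size.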
